A study of Mus musculus with 8 samples.

Results

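The loci described here are stretches of transcribed DNA that match no reference transcript, consist of a single exon and lie within 5000 nt of an annotated locus. In the authors' merged annotation they are the loci whose transcripts all carry the class code u (intergenic, no reference transcript) with a gap of at most 5000 nt to the nearest locus that holds a transcript with the code = (a match to a reference transcript). They number 1375 of 31020 loci. By the strand of the nearest annotated locus 655 lay upstream of its start and 442 downstream of its end. Another 278 overlapped the stretch between the outer limits of the annotated locus, so the gap was 0 and no side could be given. These are called inside loci. Starts, ends and outer limits are taken over all transcripts of a locus in the merged annotation, not only those that match a reference transcript.

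RNA came from macrophages cultured from the bone marrow of C57BL/6 mice. Untreated cells (4 libraries) were compared with cells given the cytokine IL-4, interleukin-4 (4 libraries), to ask which transcripts differ in abundance after IL-4. Total RNA was depleted of ribosomal RNA and was not selected for poly(A) tails, per the labels' protocols. The dose and duration of IL-4 and the age of the mice are not given in the sources used here, and whether libraries came from separate mice or cultures is not stated, so p-values reflect only how much these libraries vary. Total counts ran from 23071022 to 27783417 per library. Both replicate 4 libraries had reads on the Y chromosome, 5808 and 5525 counts against 0 to 7 in the other 6. The files name transcripts by identifiers that matched 0 entries of the reference gene tables, so macrophage marker genes could not be looked up, and loci are given by their position on the build mm9.

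IL-4 acts through its receptor and the transcription factor STAT6 and turns macrophages towards a state linked to tissue repair and type 2 immunity. Transcription is not limited to genes. Many mammalian promoters also start RNA in the opposite direction, which gives short-lived RNA upstream of the gene, and RNA polymerase can run past the end of a gene before it stops. Active enhancers are transcribed as well, and unspliced RNA from within genes is seen when poly(A) tails are not selected. A library without strand, or an assembled exon without a splice site, does not tell these kinds apart, and only 7 of the 1375 loci have a strand in the annotation.

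Upstream loci crowded against gene starts, and downstream loci crowded less against gene ends. Of the 655 upstream loci, 375 (57.3%) lay within the first 500 nt and 292 within the first 250 nt, with a median gap of 326 nt. Of the 442 downstream loci, 63 lay within the first 250 nt and 85 (19.2%) within the first 500 nt, against 47 between 500 and 1000 nt. Their median gap was 2231 nt. Downstream loci were fewer between 1000 and 2000 nt, with 47, than between 2000 and 3000 nt, with 112. The code that the same scheme keeps for fragments close behind the end of a gene, p, was carried by 0 transcripts of the deposited annotation. The sources used here do not say whether such fragments were removed, and their part in the thin stretch between 1000 and 2000 nt was not tested.

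**Figure D1:**
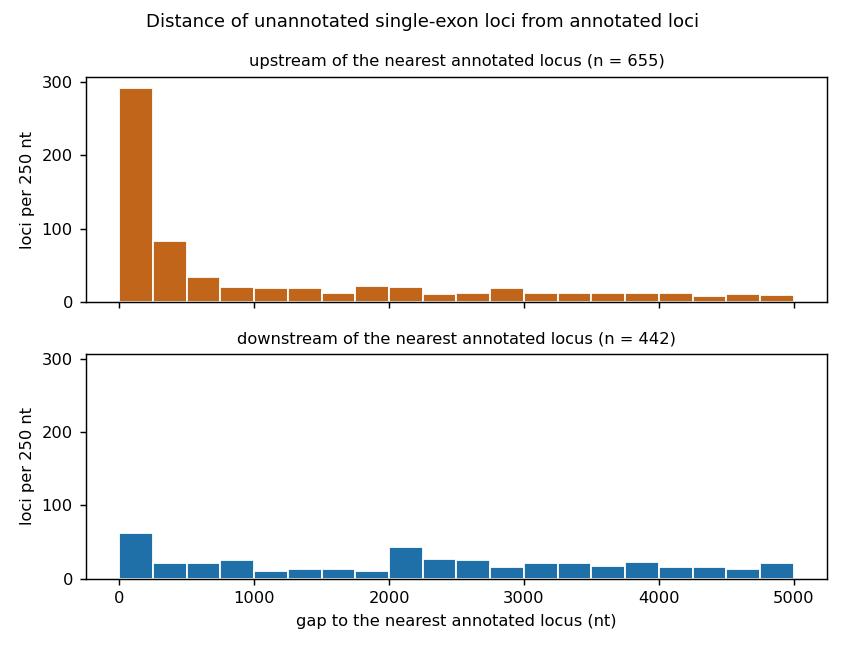
Number of unannotated single-exon loci by gap to the nearest annotated locus, in bins of 250 nt, for the 655 upstream loci (top) and the 442 downstream loci (bottom). Upstream loci pile up in the first 250 nt, with 292 loci. Downstream loci do so less, with 63 there, and are spread over the whole range with a step up at 2000 nt.

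The nearest annotated locus was protein-coding for 610 upstream, 406 downstream and 230 inside loci. The 1375 loci shared 1099 neighbours, of which 932 had 1 such locus, 124 had 2 and 43 had 3 or more, so loci are not independent of each other. The loci were short, with a median length of 1222 nt and a range of 106 to 44756 nt, and 6 of them shared exonic sequence with another locus. Of the upstream and downstream loci, 151 lay within 5000 nt of an annotated locus on both sides, 41 of them between divergent genes, 24 between convergent genes and 86 between genes in tandem.

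Levels were low. Of the 1375 loci, 6 had 0 counts in all libraries and 748 (54.4%) passed the filter on low counts (362 upstream, 222 downstream, 164 inside). Those that passed had a median of 21.3 counts per library and 0.841 CPM (counts scaled to the library's total count), against 23.9 CPM for annotated loci. Scaled to length, the median was 0.414 CPM per kb for these loci and 4.10 CPM per kb for annotated loci. Beside its own neighbour an upstream locus reached a median of 6.81% of the neighbour's CPM per kb, a downstream locus 3.53% and an inside locus 18.2%. The level exceeded that of the neighbour at 65 of the 675 loci whose neighbour was also tested.

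Together the 1375 loci took 0.383%, 0.409%, 0.419% and 0.390% of the counts in the 4 untreated libraries and 0.385%, 0.381%, 0.388% and 0.370% in the IL-4 libraries. The 2 groups overlapped. Downstream loci took 0.135% to 0.148% of the counts in untreated and 0.129% to 0.133% in IL-4 libraries, which did not overlap, and upstream loci 0.192% to 0.201% and 0.184% to 0.198%, which did. These shares are of total counts without edgeR's TMM scaling factors, which raise log2 fold changes by a median of 0.11 over loci of at least 10 CPM. The downstream share also rests on abundant loci on chromosomes 19, 6 and 7. These averaged 310, 181 and 175 CPM untreated and 280, 159 and 142 CPM with IL-4, and only the last passed edgeR's test. Between 41.9% and 46.8% of the counts on the 1375 loci came from the 10 most abundant of them.

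IL-4 changed the abundance of 297 of the 748 tested loci, with a smaller share of rises than over all tested loci. With edgeR's quasi-likelihood test, adjusted over all 13761 tested loci of the series at a threshold of 0.05, 104 rose and 193 fell. That is 39.7% of the loci tested, against a background of 51.8% over all tested loci, where 25.6% rose and 26.2% fell. Among annotated loci 53.5% changed, and among unannotated single-exon loci farther than 5000 nt away 37.8%. Here 13.9% rose and 25.8% fell, so the share of falls was near the background and the share of rises was below it. By size, 61 of the rises and 102 of the falls were at least 2-fold. On the CPM scale all IL-4 libraries were above all untreated ones at 79 loci and below them at 202, together 37.6%, against 50.2% of all tested loci (18.7% above, 31.5% below). That scale has more loci below than above over the whole series too. Fitted fold changes, which use edgeR's TMM factors, exceeded the ratio of mean CPM by a median of 0.11 on the log2 scale over loci of at least 10 CPM.

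The split between rises and falls was most uneven upstream. Of 362 tested upstream loci 41 rose and 111 fell (11.3% and 30.7%); their median log2 fold change was -0.33, against -0.02 over all tested loci. Within 500 nt of the gene start 17 rose and 66 fell of 209. Downstream, 30 of 222 rose and 48 fell (median -0.16). Inside, 33 of 164 rose and 34 fell (median -0.04). Whether the classes differ was not tested. Only loci that passed the filter enter these counts, and one that is high in a single group can pass through that group.

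**Figure D2:**
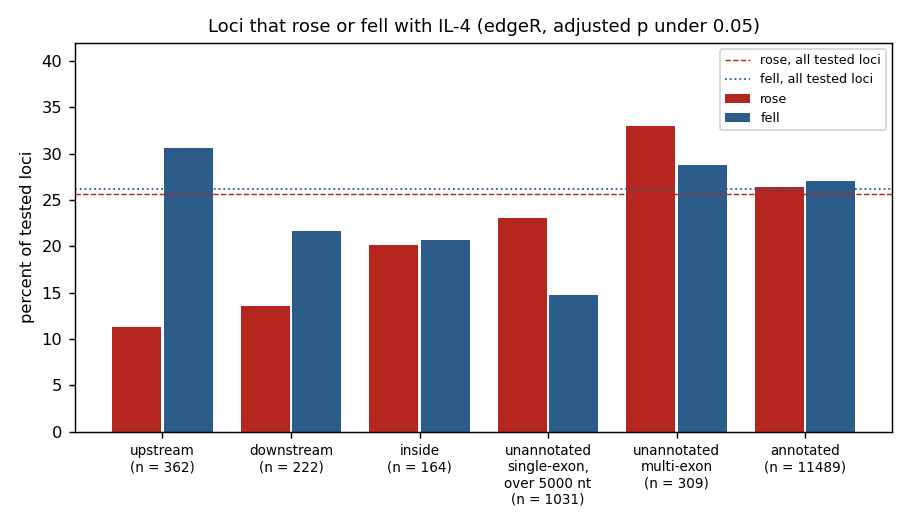
Percent of tested loci that rose (red) or fell (blue) with IL-4 by edgeR at an adjusted p under 0.05, for each class of unannotated single-exon locus, for unannotated loci farther away or with several exons, and for annotated loci; dashed and dotted lines mark all tested loci. In upstream loci 11.3% rose and 30.7% fell, whereas among single-exon loci farther than 5000 nt from annotated ones 23.1% rose and 14.7% fell.

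Upstream and downstream loci under 2 CPM, and upstream loci at 2 to 10 CPM, had fewer rises than all tested loci at their level. Among tested loci under 2 CPM, 66 rose and 156 fell of 590 (11.2% and 26.4%), against 19.4% and 23.8% for all tested loci at that level. By class, 8.61% rose and 31.5% fell of 302 upstream loci, and 9.41% and 21.8% of 170 downstream loci. Inside loci did not share this, with 20.3% rising and 20.3% falling of 118. At 2 to 10 CPM 19 rose and 29 fell of 110 (17.3% and 26.4%), against 22.8% and 30.2% for all tested loci at that level. The classes differed there, with 2 rises and 14 falls of 34 upstream loci (5.88% and 41.2%). Downstream loci had 9 and 7 of 37, and inside loci 8 and 8 of 39. At 10 CPM or more 19 rose and 8 fell of 48 (39.6% and 16.7%), against 28.8% and 25.8%. By class these were 13 and 2 of 26 upstream, 5 and 4 of 15 downstream, and 1 and 2 of 7 inside. Measured by the authors' FPKM (fragments scaled to transcript length and library size), 154 loci reached 1 FPKM in 4 libraries, and there 25 rose and 19 fell (limma on log2(FPKM + 0.1)). By counts the 138 of these that passed the filter also had more rises, 29 against 22 falls. Unannotated single-exon loci farther than 5000 nt from annotated ones had more rises than falls, 238 and 152 of 1031. At the edge of the rule, 7 rose and 2 fell of 27 tested loci in the last 500 nt up to the limit, and 7 rose and 2 fell of 17 in the first 500 nt past it.

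Beside their neighbours, the loci moved in the same direction more often than not. Both the locus and its annotated neighbour were tested at 675 loci and both changed at 172, 149 in the same direction (57 up, 92 down) and 23 in opposite directions. Of annotated loci with an annotated neighbour within 5000 nt, 540 of 752 such pairs went the same way, and over all pairs of the series 2053 of 2766. Of unannotated single-exon loci farther than 5000 nt from annotated ones, 118 of 157 went the way of their nearest annotated locus. Across these 675 loci the log2 fold changes of locus and neighbour had a Pearson correlation of 0.67 and a Spearman correlation of 0.53. The correlation was 0.84 (rank 0.65) for 188 downstream, 0.54 (rank 0.48) for 325 upstream and 0.67 (rank 0.52) for 162 inside loci. For 2676 annotated loci with an annotated neighbour within 5000 nt it was 0.37 (rank 0.27). For 596 unannotated single-exon loci farther than 5000 nt from annotated ones it was 0.56 (rank 0.40), so a correlation of the upstream size was seen there too. The points share libraries, and 675 loci share 557 neighbours, so no p is given. Downstream, the correlation was 0.89 (rank 0.68) for gaps under 2000 nt and 0.78 (rank 0.59) for larger ones. Upstream it was 0.47 (rank 0.50) and 0.72 (rank 0.46), so the order there turns with the measure. Among 56 loci with a tested annotated locus within 5000 nt on each side, the fold change was closer to that of the nearer one at 28, with a correlation of 0.65 (rank 0.37) with the nearer and 0.52 (rank 0.39) with the other.

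**Figure D3:**
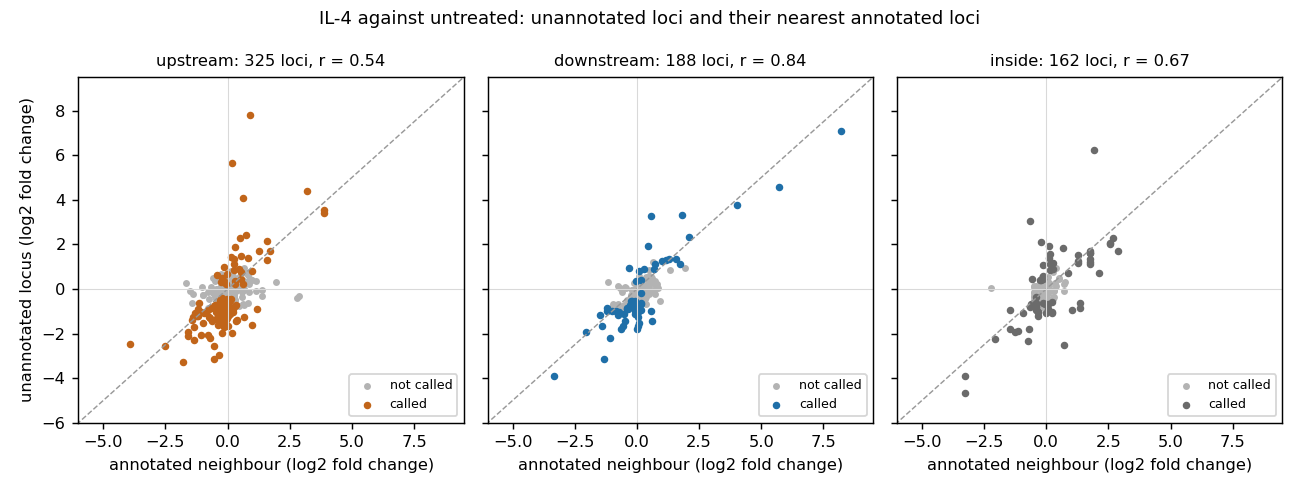
Log2 fold change (IL-4 against untreated, edgeR) of each unannotated single-exon locus against that of its nearest annotated locus, for 325 upstream, 188 downstream and 162 inside loci; coloured points are loci that passed the test, and the dashed line marks equal change. Downstream points follow the line most closely (r = 0.84), and in the upstream panel most called points with a small change of the neighbour lie below 0.

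Whether a locus moved by another factor than its neighbour was tested on the log2 ratio of their counts, with limma over all 9514 such pairs of the series. The ratio changed at 211 of 675 loci (31.3%), against 46.5% of all pairs, and the calls were uneven: it rose at 59 and fell at 152. Over all pairs it rose at 23.2% and fell at 23.3%. For these loci the shares were 8.74% and 22.5%. Upstream loci lost ground to the gene at 92 and gained at 32 of 325, downstream loci at 37 and 10 of 188, and inside loci at 23 and 17 of 162. The median log2 ratio change was -0.30 upstream, -0.24 downstream and -0.06 inside. Low counts limit this test, since a constant of 2 counts was added to each value and shrinks the change of a weak locus. Fewer of these loci than of their neighbours passed edgeR's test: 198 had a neighbour that changed while their own change did not pass, and 95 changed beside a neighbour whose change did not pass, 71 of them falling.

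Of the 8 largest rises, 3 were downstream loci on chromosomes 10 and 14 with at most 1 count in the untreated libraries together. A 3823-nt locus on chromosome 10 (9985765 to 9989587), 1922 nt behind the end of a non-coding locus that itself had 0 counts in all libraries, had 0 counts in each untreated library. With IL-4 it had 66, 196, 168 and 98 counts, or 2.55, 7.05, 7.01 and 3.62 CPM. Against the 3 counts that 4 libraries with 0 still allow, the level was at least 166-fold higher, with an adjusted p of 3.918e-05 in edgeR. A 3000-nt locus on chromosome 14 (44542972 to 44545971) also had 0 untreated counts and had 59, 75, 50 and 48 with IL-4, at least 72.8-fold higher. Its neighbour, a 3-exon protein-coding locus whose end lies 2226 nt before it, had 0 and 1 counts in the groups and was not tested.

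The other chromosome 14 locus (44515992 to 44519868) lay 1630 nt behind a 4-exon protein-coding locus (44396128 to 44514361) that rose from 0.506 ± 0.101 to 140 ± 15.5 CPM (SD, n = 4 libraries here and below), 294-fold. The unannotated locus had 1 count in untreated replicate 1 and 0 in the others, and 61, 48, 39 and 52 counts with IL-4. The ratio of CPM was 188 with an exact 95% interval of 33.4 to 7474, which takes in the fold of the neighbour, and without untreated replicate 1 it was at least 47.0-fold higher. The log2 ratio to the neighbour changed by -3.46 (limma, adjusted p = 1.636e-06), and by -1.91 or -4.68 with 0.5 or 8 in place of the 2 counts added, so its size rests on the constant.

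At a gene start on chromosome 6, an upstream locus appeared beside a gene that was already active. The 3835-nt locus (86748401 to 86752235) begins 78 nt before a 14-exon protein-coding locus (86685123 to 86748322, minus strand). It had 0, 0, 0 and 0.0417 CPM in untreated and 3.02, 3.74, 3.38 and 2.37 CPM in IL-4 libraries, all 4 far above the single untreated count. The ratio was 308 (54.9 to 12196), and without untreated replicate 4 at least 77.7-fold, or 84.2-fold without both replicate 4 libraries. The gene itself went from 876 ± 11.7 to 1540 ± 32.1 CPM, 1.89-fold (edgeR, adjusted p = 4.361e-07). Relative to the gene the locus rose by a log2 ratio of 4.32 (SE 0.26, limma, adjusted p = 2.724e-08), the largest such rise of the 675, and by 6.04 or 2.53 with the other constants.

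Upstream loci on chromosomes 9 and 16 also rose relative to the gene. The 1502-nt locus on chromosome 9 (44043460 to 44044961), 1315 nt upstream of a 16-exon protein-coding locus, had 1 untreated count, in replicate 3, and 23, 11, 23 and 16 counts with IL-4. That is a ratio of 68.7 (11.95 to 2751), or at least 17.5-fold without that library, while the gene had 124 ± 31.7 and 131 ± 24.0 CPM (edgeR, adjusted p = 0.36). The locus lay close to the filter on low counts: without IL-4 replicate 1 or IL-4 replicate 4 it was not tested. Its count ratios there were 62.5 (10.7 to 2518) and 72.4 (12.5 to 2908). On chromosome 16 a locus (96364764 to 96366590) lay 435 nt upstream of a 5-exon protein-coding locus. It went from 0.0403, 0, 0.0433 and 0.167 CPM to 0.735, 1.55, 1.13 and 0.702 CPM, 16.8-fold, while the gene rose 1.53-fold, from 8.05 ± 0.854 to 11.4 ± 1.31 CPM. Without untreated replicate 4 the count ratio of this locus was 38.5 (10.4 to 322), and 42.8 (11.5 to 359) without both replicate 4 libraries. Their log2 ratios to the gene rose by 2.96 (1.46 to 4.59 over the constants) and 2.51 (1.27 to 3.52).

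The remaining large rises lay beside genes that also rose. On chromosome 16 (16275266 to 16276078) a locus 2460 nt behind a 13-exon protein-coding locus rose 23.6-fold, from 0.0403, 0.0375, 0.0867 and 0 CPM to 0.697, 1.22, 1.63 and 0.481 CPM. The gene rose 51.8-fold, from 1.21 ± 0.546 to 58.9 ± 27.0 CPM, and in both the IL-4 libraries 2 and 3 were higher than 1 and 4. The log2 ratio of the pair changed by -2.43 (limma, adjusted p = 1.388e-05), or by -1.44 to -3.45 over the constants. On chromosome 17 (35949554 to 35953720) a locus 4937 nt upstream of a 2-exon protein-coding locus rose 20.9-fold, from 0.0814 ± 0.0571 to 1.68 ± 0.441 CPM, and the gene rose 9.17-fold; the sign of their ratio turned with the constant, from 1.09 to -0.75. An inside locus on chromosome 3 (87069233 to 87070671) went from 1 count, in untreated replicate 1, to 35, 26, 32 and 16 counts. The ratio was 103 (18.0 to 4089.8), and at least 25.6-fold without that library, within a 9-exon protein-coding locus that rose 3.79-fold. Its log2 ratio to the gene rose by 1.74, and by 3.41 or 0.14 with the other constants, the last of which did not pass (limma, adjusted p = 0.6408).

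**Figure D4:**
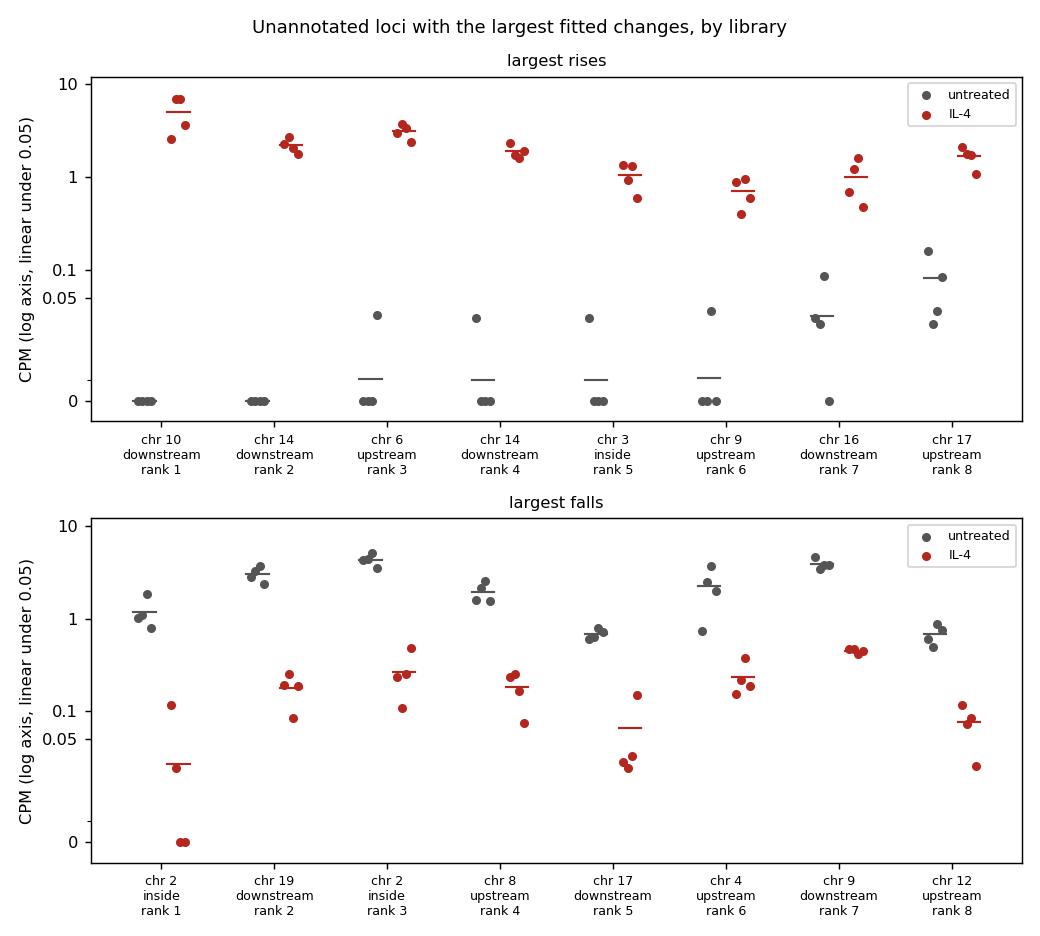
CPM in each library for the 8 loci with the largest fitted rises (top) and the 8 with the largest fitted falls (bottom) among those that passed the test with groups that do not overlap; points are libraries (grey untreated, red IL-4), bars are group means, and the axis is logarithmic above 0.05 CPM and linear under it. The top 2 rises start from 0 in all 4 untreated libraries, and in all 16 loci every IL-4 library lies on one side of every untreated library, as the choice of loci requires.

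The largest falls ran alongside falls of the gene. A pair of inside loci on chromosome 2 lie near the start of a 9-exon protein-coding locus (163028829 to 163149996) that fell from 5.75 ± 1.01 to 0.545 ± 0.0550 CPM, 9.71-fold. The first (163031047 to 163033747) had 1.01, 1.09, 1.82 and 0.793 CPM in untreated and 0.116, 0.0360, 0 and 0 CPM in IL-4 libraries, 25.4-fold lower, or a count ratio of 0.0109 (0.000273 to 0.0618) without IL-4 replicate 1. The second (163033813 to 163042422) fell 14.7-fold, from 4.33 ± 0.642 to 0.268 ± 0.155 CPM (edgeR, adjusted p = 9.716e-07). A locus on chromosome 19 (41831746 to 41837807), 3172 nt behind a 12-exon protein-coding locus, had 2.78, 3.22, 3.73 and 2.34 CPM in untreated and 0.194, 0.252, 0.0834 and 0.185 CPM in IL-4 libraries, 15.1-fold lower. The gene fell 10.2-fold, from 214 ± 52.2 to 19.5 ± 3.43 CPM. The ratio to the gene did not pass the test at any of these 3 loci (limma, adjusted p = 0.548, 0.1363 and 0.5923), although with 8 counts added it rose for the first and the last (adjusted p = 0.008774 and 0.02075). At the second the ratio fell, by 0.82 on the log2 scale, without IL-4 replicate 4 (adjusted p = 0.02222).

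At 4 of the large falls the locus fell further than its gene. A 4664-nt locus on chromosome 8 (85382229 to 85386892), 96 nt upstream of an 8-exon protein-coding locus, fell 9.69-fold, from 1.94 ± 0.469 to 0.181 ± 0.0802 CPM, and the gene 3.47-fold, from 89.1 ± 6.88 to 23.8 ± 2.05 CPM. Their log2 ratio fell by 1.11 (limma, adjusted p = 0.003855), but not with 8 counts added (adjusted p = 0.1761). On chromosome 4 (93023545 to 93029545) a locus 4137 nt upstream of a single-exon protein-coding locus had 0.726, 2.47, 3.73 and 2.00 CPM in untreated and 0.155, 0.216, 0.375 and 0.185 CPM in IL-4 libraries. Untreated replicate 1 was the lowest of its group, and all 4 still exceeded every IL-4 library, with a fitted fall of 8.78-fold against 1.47-fold for the gene and a log2 ratio of -2.10 (limma, adjusted p = 0.0003032). On chromosome 12 (35723547 to 35724849) a locus 595 nt upstream of a 26-exon protein-coding locus fell 7.75-fold, from 0.678 ± 0.166 to 0.0771 ± 0.0326 CPM, and the gene 1.25-fold, from 139 ± 17.0 to 103 ± 9.34 CPM, a log2 ratio of -1.87 (adjusted p = 0.0002791) or -0.94 with 8 counts added. A locus on chromosome 17 (10527190 to 10528880), 3532 nt behind a single-exon non-coding locus, fell 8.90-fold, and without IL-4 replicate 4 the count ratio was 0.0568 (0.0114 to 0.173), or 0.0576 (0.0115 to 0.178) without both replicate 4 libraries. The non-coding locus fell 2.52-fold, and the log2 ratio of the pair fell by 1.07 (limma, adjusted p = 0.01291), a call lost with 8 counts added (adjusted p = 0.7509).

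A 329-nt locus on chromosome 9 (92871062 to 92871390) fell with little spread. It had 4.56, 3.41, 3.81 and 3.797 CPM in untreated and 0.464, 0.468, 0.417 and 0.444 CPM in IL-4 libraries, 7.99-fold lower, with an adjusted p of 1.695e-07 in edgeR. Its nearest annotated locus, a 4-exon non-coding one whose end lies 3372 nt away, had 0 counts in all libraries.

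With 2 counts added, the largest fall of the ratio was at the chromosome 14 locus described above, which rose beside a gene with a larger fitted rise. The exact interval of its own rise takes in the fold of the gene. Its rank rests on the constant, since with 0.5 counts added its log2 ratio changed by -1.91, less than at the next 3. At the next 3 the locus fell or had a change that did not pass while the gene rose. A locus on chromosome 4 (55545795 to 55548711), 442 nt upstream of a 5-exon protein-coding locus, had 1.57, 1.54, 1.78 and 1.29 CPM in untreated and 1.39, 0.900, 1.13 and 0.924 CPM in IL-4 libraries, which overlapped (edgeR, adjusted p = 0.09737, and 0.04758 without IL-4 replicate 1). The gene rose 6.94-fold, from 11.02 ± 2.20 to 71.0 ± 7.31 CPM, and the log2 ratio fell by 3.19 (SE 0.23, limma, adjusted p = 1.104e-07), by 3.11 to 3.22 over the constants. A 519-nt locus elsewhere on chromosome 4 (151531049 to 151531567) averaged 1.98 ± 0.485 CPM untreated and 1.49 ± 0.269 CPM with IL-4 (adjusted p = 0.2521). The 5-exon protein-coding locus 1408 nt ahead of it rose 7.26-fold, from 0.154 ± 0.0550 to 1.06 ± 0.276 CPM, and the log2 ratio was -2.66 (-1.85 to -3.05 over the constants). An inside locus on chromosome 19 (10245757 to 10246926) fell 5.62-fold, from 0.807, 0.5996, 0.650 and 0.584 CPM to 0.116, 0.108, 0.125 and 0.0739 CPM. The protein-coding locus around it, which joins 2 groups of reference transcripts, rose 1.62-fold; the log2 ratio was -2.62 (-1.85 to -3.05). The reverse was seen on chromosome 13 (23808365 to 23810130), where an inside locus rose 8.16-fold, or 14.9-fold without untreated replicate 3. The protein-coding locus around it, also of 2 groups, fell 1.59-fold, and the log2 ratio was 3.11 (2.14 to 3.75).

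Opposite calls of locus and neighbour numbered 23 of 172 (11 upstream, 4 downstream and 8 inside), against 212 of 752 for annotated loci within 5000 nt of each other and 713 of 2766 for all pairs. For unannotated single-exon loci farther than 5000 nt from annotated ones they numbered 39 of 157. In 19 of the 23 the unannotated locus fell while the neighbour rose. The largest upstream was a 3208-nt locus on chromosome 5 (139224463 to 139227670), 3364 nt ahead of an 11-exon protein-coding locus. It fell from 1.29, 1.54, 1.65 and 1.42 CPM to 0.426, 0.432, 0.542 and 0.407 CPM, 3.02-fold (edgeR, adjusted p = 4.022e-05), as the gene rose from 133 ± 16.4 to 248 ± 21.7 CPM, 2.00-fold. Upstream loci on chromosome 17 (57150930 to 57153135, gap 191 nt) and chromosome 2 (131029243 to 131030707, gap 2035 nt) fell 2.74-fold and 2.61-fold beside genes that rose 1.25-fold and 1.31-fold. Downstream, a locus on chromosome 7 (152364048 to 152365740) fell 2.67-fold beside a gene that rose 1.52-fold. That fall rests on 52 and 19 counts, and leaving out untreated replicate 1 or 3 or IL-4 replicate 1 raised its adjusted p to 0.05303 to 0.06853. A locus on chromosome 15 (82184812 to 82188616), 82 nt behind the end of its gene, fell 2.00-fold, from 1.78 ± 0.364 to 0.825 ± 0.209 CPM, as the gene, a locus that joins 2 groups of reference transcripts, rose 1.46-fold. On chromosome 1 (193064198 to 193068831) a locus rose 1.90-fold, from 1.37 ± 0.363 to 2.42 ± 0.469 CPM, 3013 nt behind a non-coding locus that fell 1.25-fold.

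The 6 most abundant of the loci had fitted log2 fold changes between -0.20 and 0.46. An 829-nt locus on chromosome 8 (19492794 to 19493622) had 393 ± 4.10 CPM in untreated and 408 ± 9.21 CPM in IL-4 libraries (log2 fold change 0.16, edgeR, adjusted p = 0.02895). It no longer passed when untreated replicate 2, 3 or 4, or both replicate 4 libraries, were left out (adjusted p = 0.05026 to 0.08757). Its neighbour 1474 nt away, a 2-exon protein-coding locus, had 0 counts. On chromosome 19 (9357771 to 9358992) a locus had 280, 338, 353 and 267 CPM in untreated and 275, 256, 289 and 299 CPM in IL-4 libraries, which overlapped (adjusted p = 0.7711), beside a non-coding locus with 3 and 1 counts. A 476-nt locus on chromosome 6 (71074569 to 71075044) averaged 181 ± 5.16 CPM untreated and 159 ± 11.5 CPM with IL-4 (adjusted p = 0.3024). A locus on chromosome 7 (148363700 to 148364564) fell by 0.20 on the log2 scale, from 175 ± 8.01 to 142 ± 6.38 CPM (edgeR, adjusted p = 0.02207). It did not pass after leaving out untreated replicate 4, IL-4 replicate 2 or 3, or both replicate 4 libraries (adjusted p = 0.06187 to 0.09017).

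In 2 of the 6 the locus and its gene rose by like amounts. On chromosome 5 (24087253 to 24088041) a 789-nt locus went from 119, 122, 112 and 122 CPM to 162, 141, 156 and 149 CPM, 1.37-fold. The 14-exon protein-coding locus 3967 nt away rose 1.47-fold, and the log2 ratio was -0.10 (SE 0.09, limma, adjusted p = 0.4136). On chromosome 9 (44182700 to 44183476) a 777-nt locus went from 122 ± 6.26 to 143 ± 9.33 CPM, 1.27-fold, beside a 26-exon protein-coding locus that rose 1.24-fold, with a log2 ratio of 0.03 (SE 0.09, adjusted p = 0.8059). Neither ratio passed the test, which does not show that the pairs change alike.

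Adjacent loci that share a neighbour had like fold changes. Of 276 pairs of adjacent loci with 1 shared neighbour, a median of 1096 nt apart, both were tested at 104, and their log2 fold changes had a correlation of 0.90 (rank 0.87). Both passed at 28 pairs, 28 times in the same direction. No such share was computed for adjacent annotated loci. The pairs share libraries and are not independent, since a locus can enter more than 1 pair and many pairs can lie in the same gene. The annotated locus with the most of the unannotated loci was on chromosome 11 (67267350 to 67503328, 14 exons, protein-coding), with 17, all inside. The gene had 492 ± 22.4 CPM untreated and 341 ± 39.7 with IL-4, and fell by 0.42 on the log2 scale (SE 0.09; adjusted p = 0.002423). Of the 12 loci tested there 5 fell, with log2 fold changes of -0.93 to 0.12 over the 12. Their summed CPM was 17.2, 26.3, 33.3 and 23.6 in untreated and 12.04, 25.6, 14.1 and 11.98 in IL-4 libraries, so IL-4 replicate 2 lay among the untreated ones.

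Loci inside the next 2 did not pass the test. On chromosome 2 a non-coding locus of 4 exons (45050963 to 45139920) held 16 of them, 6 tested, with a lowest adjusted p of 0.1714, and the locus itself had 17.7 ± 2.55 and 15.4 ± 0.867 CPM. On the same chromosome an 8-exon protein-coding locus (78077704 to 78261313) held 14, all tested, with a lowest adjusted p of 0.09903. Their summed CPM was 22.1, 46.2, 60.1 and 33.3 in untreated and 24.1, 47.0, 37.2 and 39.3 in IL-4 libraries. A coding locus on chromosome 10 (66999129 to 67077806, 7 exons) was chosen after its values were seen, as the one with the most loci that rose. It had 7 inside loci with log2 fold changes of 1.10 to 1.70. Of these 6 rose, beside a gene that rose by 1.78 on the log2 scale (SE 0.13), from 83.3 ± 15.8 to 265 ± 32.8 CPM. Their summed CPM was 2.90, 5.70, 6.11 and 4.76 in untreated and 9.40, 18.7, 12.3 and 8.02 in IL-4 libraries.

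Within a group, many inside and downstream loci were high or low in the same libraries. In untreated replicate 1 the median deviation from the group mean was -0.28 on the log2 scale for inside and -0.19 for downstream loci, and in untreated replicate 3 it was 0.22 and 0.16. Among the IL-4 libraries replicate 2 was highest for inside loci, at 0.21. Upstream loci ranged from -0.08 to 0.10 and annotated loci from -0.02 to 0.02 over the 8 libraries. The part of this shift in the calls was not tested; leaving out each library in turn gave 96 to 116 rises and 180 to 216 falls.

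**Figure D5:**
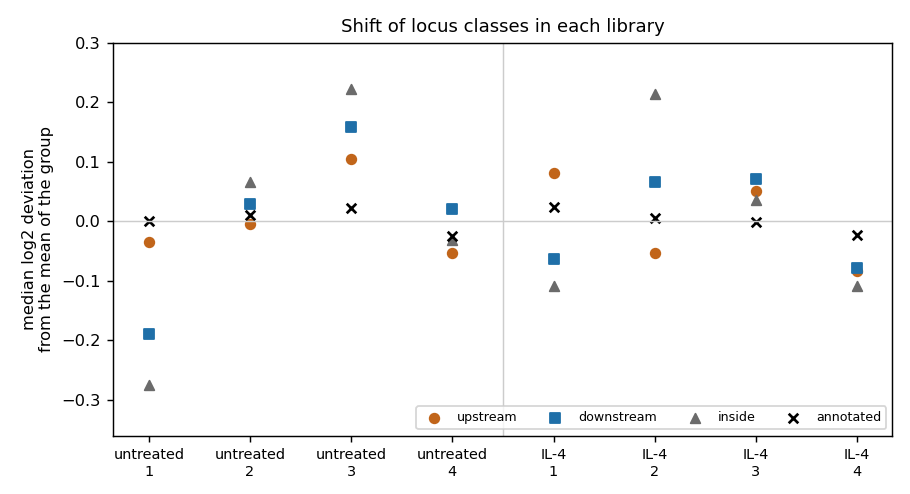
Median over tested loci of the log2 deviation of each library from the mean of its group (log2 of CPM + 0.25), for upstream, downstream and inside loci and for annotated loci, in the 4 untreated and 4 IL-4 libraries. Inside and downstream loci are low in untreated replicate 1 and high in untreated replicate 3, whereas annotated loci range from -0.02 to 0.02.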

How the data were processed

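The submitters' processing notes name the build mm9 and the tools HTSeq, Cufflinks 2.1.1, TopHat2 2.0.9 and CASAVA 1.8.2. Settings, the use of strand and the handling of reads with several positions are not given in the sources used here. Deposited for the 8 libraries were raw read counts per merged locus, FPKM values and the merged annotation with exon coordinates. Columns were matched to libraries by the name in their description, and 0 were unmatched. A neighbour counts as coding if any of its transcripts has a coding-sequence identifier.

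Computed here: CPM, the count over the library's total count; edgeR 4.0.16 in R 4.3.3 (TMM factors, default filter, quasi-likelihood test, two-sided, Benjamini-Hochberg over 13761 loci, threshold 0.05), with the standard error from the F value; and, for each tested locus whose nearest other annotated locus was tested, limma 3.58.1 on the log2 ratio of counts plus 2, adjusted over 9514 pairs. FPKM were tested with limma on log2(FPKM + 0.1), which understates changes of low values. Where a group had 0 counts, folds are against 3 counts in the group; with 1 to 3 counts, ratios have exact binomial intervals at the 95% level. These cover counting error only, and reads may be PCR copies. For FPKM the depth behind a value is unknown. The procedures were run on simulated data. Simulated counts had the same dispersion (spread beyond counting error) at every locus, so the run gives no error rate for these weakly transcribed loci. No sequence is given because no mm9 genome was used here.

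The labels number replicates 1 to 4 in both groups. Deviations from the group means correlated between equal numbers (0.39, 0.15, 0.23 and 0.18). All were over 0.1, but unequal numbers ran from -0.27 to 0.26 and some of them were over 0.1 too. These values do not settle whether equal numbers are pairs. Reads on the Y chromosome mark number 4 in both groups and do not bear on the other numbers. The main fit was therefore unpaired, and a fit with the number as a block was an alternative. The others were RLE and upper-quartile factors, other filters, DESeq2 1.42.0, edgeR's glmTreat against a change of 1.5-fold, libraries left out, FPKM, other gaps, spans and neighbours, and other constants in the ratio.

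Loci named are, among these loci, the 8 largest rises and 8 largest falls by fitted log2 fold change that passed with groups not overlapping (inside loci, which the rule on upstream and downstream loci did not foresee, were counted in and give 3 of these 16), the 6 most abundant, the 4 largest ratio changes in each direction that passed, the 3 largest upstream and 3 largest downstream changes opposite to the neighbour's, and the 3 annotated loci with the most such neighbours. The loci, rules and lists were chosen with earlier results of these data known. Lists of marker genes by symbol could not be used.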

Additional observations from a re-analysis of the deposited data

Results flagged for a closer look

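In 7 of 74 groups of 4 libraries a single library lay far from the other 3. In 4 of the 7 the group held a single count, so 1 library stands apart from 3 at 0 by construction. For the other 3, chance gives about 1 in 20 groups of continuous values. The 4 single counts were at loci with the largest rises. These were 0.0417 CPM in replicate 4 on chromosome 6 (86748401 to 86752235), 0.0403 CPM in replicate 1 on both chromosome 14 (44515992 to 44519868) and chromosome 3 (87069233 to 87070671), and 0.0433 CPM in replicate 3 on chromosome 9 (44043460 to 44044961). On chromosome 17 (10527190 to 10528880) IL-4 replicate 4 had 0.148 CPM against 0.0360 to 0.0417 in the others. On chromosome 4 (151531049 to 151531567) untreated replicate 1 had 2.70 CPM against 1.69 to 1.76, and on chromosome 15 (82184812 to 82188616) untreated replicate 2 had 2.32 CPM against 1.54 to 1.65.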

How the results depend on the processing

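Falls outnumbered rises under all alternatives but FPKM, where 25 rose and 19 fell of 154 loci. The counts of 104 rises and 193 falls moved by over 1.5 times in these cases: without a filter on low counts 168 rose, of 1369 loci; with CPM of at least 1 in at least 4 libraries 64 rose and 95 fell, of 329; with glmTreat and its 1.5-fold limit there were 50 rises and 81 falls; and with a gap of at most 2000 nt 66 rose, of 533. The stricter filter also gave ratio rises at 32 and ratio falls at 69 of 271 loci, and a correlation with the neighbour of 0.72; it tests fewer loci. Over the other alternatives that keep all 8 libraries ratio rises ran from 40 to 66 and ratio falls from 119 to 171.

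Leaving out each library gave 96 to 116 rises, 180 to 216 falls, 48 to 69 ratio rises and 118 to 174 ratio falls; without both replicate 4 libraries these were 98, 173, 53 and 113. With the replicate block 117 rose and 217 fell, ratios rose at 64 and fell at 171, and 294 of the 297 calls were kept; the block changed the edgeR call of no named locus. The correlation was 0.62 without the 2 pairs whose neighbour changed most and 0.67 without inside loci, 2 alternatives chosen after seeing the data. At the abundant locus on chromosome 19 (9357771 to 9358992), whose change did not pass, the log2 fold change of -0.03 ran from -0.092 to 0.023 over libraries left out. It turned positive at 0.0044 without untreated replicate 2, 0.017 without untreated replicate 3 and 0.023 without IL-4 replicate 2, and the cause was not tested. With glmTreat 8 of the named calls were lost. At a median of 21.3 counts per library, a change that did not pass is not shown to be absent.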
